A study of Mus musculus with 9 samples.

Results

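The 9 genes described here are the core of the PI3K pathway downstream of growth factor receptors. They are Pik3ca, Pik3cb, Pdpk1, Akt1, Akt2, Foxo1, Foxo3, Rps6kb1 and Eif4ebp1, chosen by name from 52025 genes in the expression tables. Expression was measured by RNA-seq in 9 libraries from mice of the Kunming strain, with 3 libraries each on postnatal day (PD) 14, 15 and 16. The labels name no treatment, and age is the 1 difference between the groups that they give. These days cover the growth of the first wave of follicles to the early antral stage, and the question was which genes change in the ovary over that time. The label for tissue was ovary and the label for source was granulosa cells, whereas the study's methods describe RNA from ovaries. Values are FPKM, the fragments mapped to a gene scaled to its exon length and to the mapped fragments of the library, so levels can be compared between genes. Each library held about 20400000 to 28700000 mapped fragments.

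The marker genes of several ovarian cell types were present in these libraries. The oocyte gene Zp3, a coat protein of the egg, was at 349 ± 38.5 FPKM on PD14 (SD, n = 3) and the granulosa gene Inha, a subunit of inhibin, was at 2296 ± 299.6 FPKM. The theca gene Cyp17a1 was at 28.9 ± 2.69 FPKM and the stromal collagen gene Col1a1 at 97.9 ± 18.1 FPKM on the same day. Transcripts of oocyte, theca and stromal genes were thus present beside those of granulosa cells, and fewer cells of a type cannot be told apart from less RNA per cell in any value below. The study describes 3 biologically independent ovaries a day, whereas the labels do not say whether these came from separate animals, so p-values measure the spread between ovaries.

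Class I PI3K phosphorylates a membrane lipid after a receptor is bound, and the lipid brings PDK1 and AKT to the membrane, where PDK1 activates AKT. AKT then phosphorylates FOXO transcription factors, which leave the nucleus, and acts through mTORC1, whose substrates S6 kinase and 4E-BP1 control translation. In the ovary, this pathway in the oocyte controls the activation of primordial follicles through FOXO3, and FOXO1 is the main FOXO protein of granulosa cells in growing follicles. The activity of these proteins is set largely by phosphorylation, which RNA levels do not measure.

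Foxo1 and Foxo3 are shown by sequence because Foxo1 was called between PD14 and PD16 and its paralog Foxo3 was not. Foxo1 lies at chr3:52268336-52353221 on the plus strand and Foxo3 at chr10:42181841-42276755 on the minus strand (mm10, GENCODE M21). The 250 bases before each gene's start in RefSeq (GRCm38.p6) are chr3:52268087-52268336 for Foxo1 and chr10:42276696-42276945 for Foxo3. They are written 5′ to 3′ on the strand of the gene, with CG dinucleotides in capitals.
Foxo1: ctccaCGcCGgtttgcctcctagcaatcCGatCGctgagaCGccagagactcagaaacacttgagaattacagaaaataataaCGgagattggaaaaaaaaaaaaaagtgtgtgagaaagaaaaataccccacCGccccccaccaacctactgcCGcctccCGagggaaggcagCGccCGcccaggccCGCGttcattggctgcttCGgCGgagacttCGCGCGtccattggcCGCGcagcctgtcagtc
Foxo3: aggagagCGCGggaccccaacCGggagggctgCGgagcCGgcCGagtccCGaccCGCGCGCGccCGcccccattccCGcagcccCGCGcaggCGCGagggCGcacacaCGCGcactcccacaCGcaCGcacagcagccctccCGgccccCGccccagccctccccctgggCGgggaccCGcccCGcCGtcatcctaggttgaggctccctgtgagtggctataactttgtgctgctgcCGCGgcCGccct
The Foxo1 window held 20 CG dinucleotides and 56.0% G and C, and the Foxo3 window held 31 and 76.4%. The medians over 32851 windows of this length in the same table were 6 CG dinucleotides and 52.4%, so both windows were above the median in both measures. A set of 3 motifs was searched on both strands, and none was found in either window. The set held the FOXO motif TGTTTAC (in 3.17% of all windows), the SF-1 motif AAGGTCA (4.08%) and the palindromic CRE motif TGACGTCA (1.55%). These letters being absent from the windows says nothing of whether a factor binds.

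All 9 genes passed the expression filter, a mean above 1 FPKM on at least 1 day, which left 15495 genes to be tested. On PD14, Akt1 had the highest level of the 9 at 66.0 ± 1.63 FPKM (SD, n = 3) and Pik3cb the lowest at 1.92 ± 0.0994 FPKM. Foxo1, Akt2 and Eif4ebp1 followed Akt1 at 30.03 ± 2.07, 27.5 ± 1.38 and 27.0 ± 2.12 FPKM, and the libraries of neighbours in this order overlapped. Foxo3 (16.0 ± 0.883 FPKM), Pik3ca (10.1 ± 0.467), Rps6kb1 (7.34 ± 0.209) and Pdpk1 (6.34 ± 0.428) came next, and none of these overlapped with its neighbours. On PD15 and PD16 the order was Akt1, Foxo1, Eif4ebp1, Akt2, Foxo3, Pik3ca, Rps6kb1, Pdpk1 and Pik3cb, with no overlap between neighbours on either day. By PD16 Foxo1 had come close to Akt1, with its highest library at 60.3 FPKM and the lowest Akt1 library at 60.7 FPKM.

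**Figure D1:**
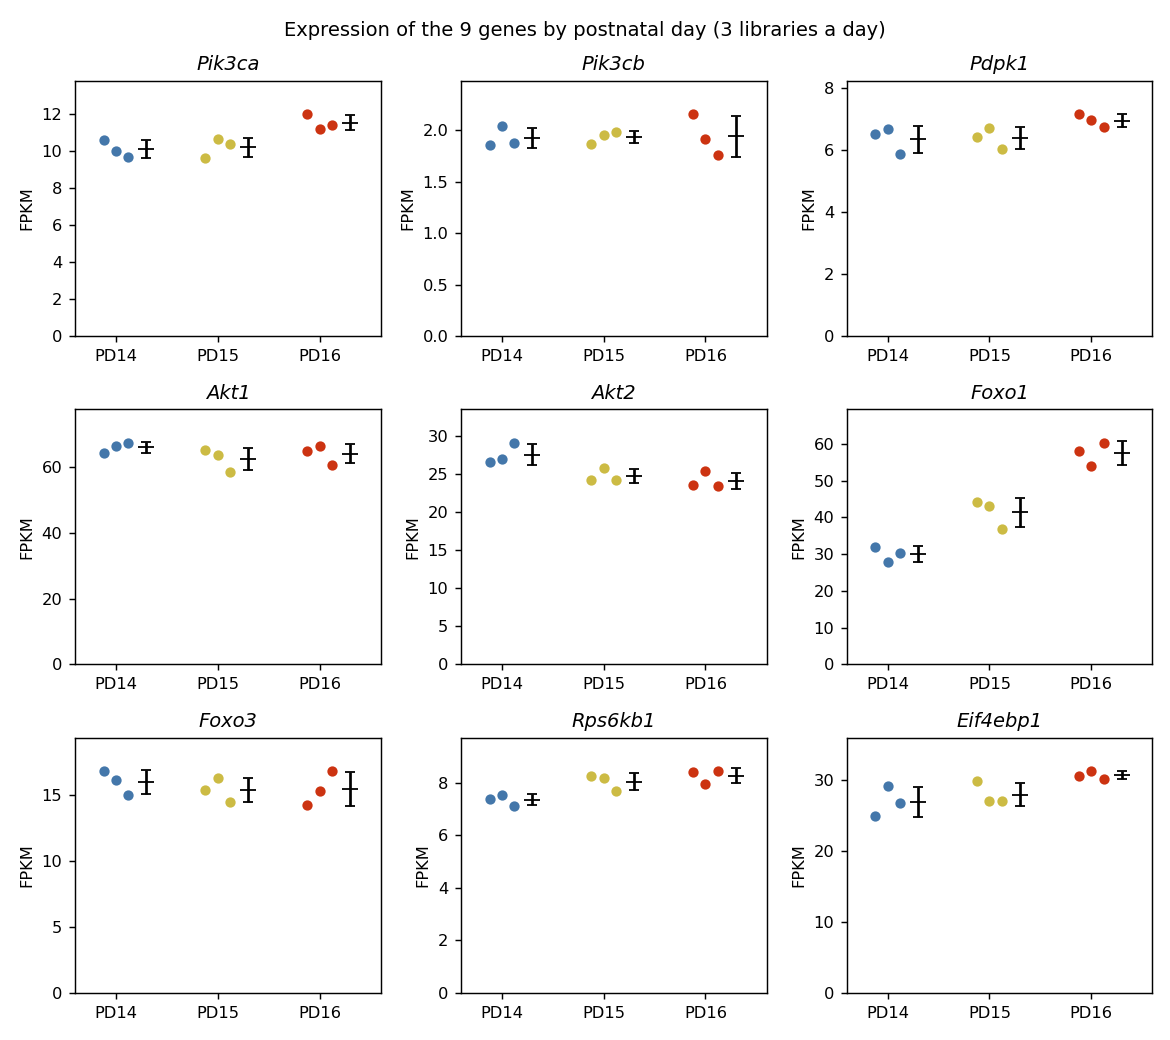
FPKM of each of the 9 genes (vertical axes, each from 0) on PD14, PD15 and PD16. Points are the 3 libraries of a day in replicate order, and the bar beside them is the mean ± SD. The Foxo1 libraries climbed from 27.8 to 31.9 FPKM on PD14 to 54.0 to 60.3 FPKM on PD16, and the PD16 means of the other 8 genes were 0.875 to 1.14 times those of PD14.

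From PD14 to PD16, 1 of the 9 genes passed the test and 8 did not. Foxo1 rose to 1.91 times its PD14 mean, and the PD16 means of the other 8 were 0.875 to 1.14 times those of PD14. By limma on log2(FPKM + 1) with Benjamini-Hochberg adjustment over all genes tested, 4.25% of the 15495 genes were called in this comparison at adjusted p under 0.05, with 366 higher and 293 lower. At an unadjusted p under 0.05 there were 5 of the 9 genes, against 22.8% of all genes tested. The libraries of PD14 and PD16 did not overlap for 6 of the 9 genes, against 28.5% of all genes tested. Pik3ca, Pdpk1, Foxo1, Rps6kb1 and Eif4ebp1 were higher in every PD16 library, and Akt2 was lower. The median difference over the 9 genes was 0.12 on the log2 scale, and over all genes tested it was 0.0093.

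From PD14 to PD15, none of the 9 genes was called by limma, against 0.678% of all genes tested. At an unadjusted p under 0.05 there were 2 of the 9 genes, Foxo1 and Akt2, against 14.7% of all genes tested. The libraries did not overlap for 3 of the 9, against 20.6% of all genes, with Foxo1 and Rps6kb1 higher on PD15 and Akt2 lower. From PD15 to PD16, Foxo1 was the 1 gene called, against 0.729% of all genes. In that comparison 4 of the 9 genes did not overlap, against 19.6% of all genes, and all 4 (Pik3ca, Pdpk1, Foxo1 and Eif4ebp1) were higher on PD16. The comparisons share libraries, so their counts are not independent of each other. Over the 3 days, the limma F test called Foxo1 alone among the 9 genes, and it called 3.03% of all genes tested.

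**Figure D2:**
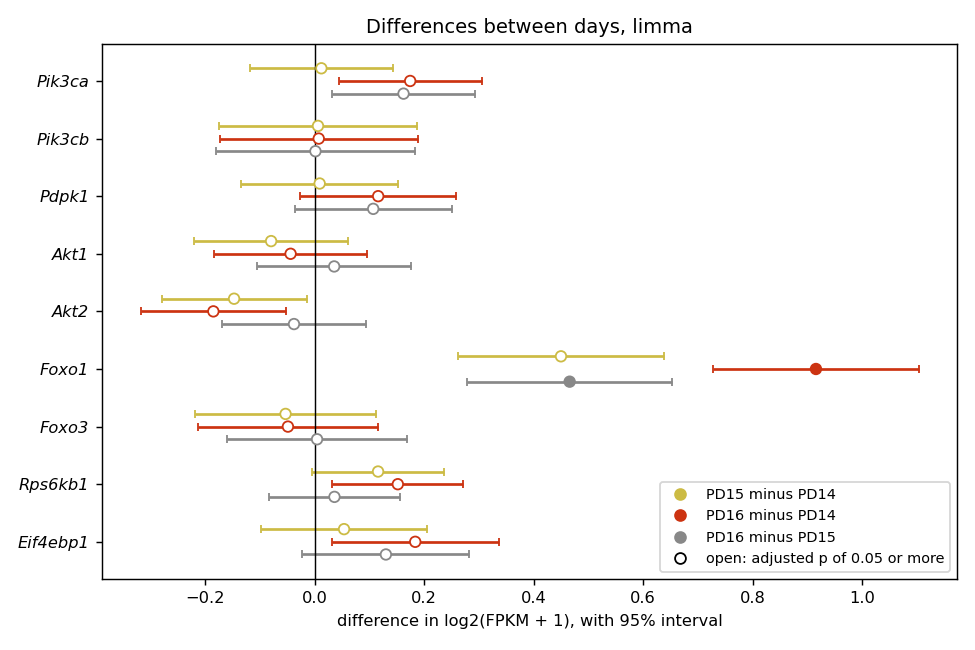
Difference between days on the log2(FPKM + 1) scale (horizontal axis) for each of the 9 genes, with 95% intervals from limma. Filled points have an adjusted p under 0.05. Foxo1 stood at 0.92 for PD16 against PD14, and the estimates of the other genes lay between -0.19 and 0.18.

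The PI3K catalytic subunits were Pik3ca, which encodes p110alpha, and Pik3cb, which encodes p110beta. Pik3ca (chr3:32397671-32468486) was at 10.6, 10.01 and 9.68 FPKM in the 3 libraries of PD14, at 9.61, 10.6 and 10.4 on PD15 and at 11.96, 11.2 and 11.4 on PD16. The PD16 libraries were thus above all 6 of the earlier days. The difference between PD16 and PD14 was 0.17 on the log2 scale (95% interval 0.044 to 0.31), which did not pass the adjustment over all genes (limma adjusted p = 0.117). PD15 differed from PD14 by 0.012 (95% interval -0.12 to 0.14).

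Pik3cb (chr9:99036654-99140621) was at 1.86, 2.04 and 1.88 FPKM on PD14, at 1.87, 1.96 and 1.98 on PD15 and at 2.15, 1.91 and 1.76 on PD16. The 3 days overlapped fully, and the widest spread of the 9 genes on a single day was that of Pik3cb on PD16, with an SD of 10.2% of the mean. Its difference between PD16 and PD14 was 0.0074 (95% interval -0.17 to 0.19, limma adjusted p = 0.967). It was also the gene with the fewest fragments, 275 to 409 a library, so that counting alone gives an error of up to 6.03% in a library. Pik3ca made up 84.0%, 84.0% and 85.6% of the summed FPKM of the pair on PD14, PD15 and PD16 (SD 1.03, 0.353 and 0.961, n = 3). The share did not pass an exact permutation test over the 280 ways to divide the 9 libraries among the 3 days (p = 0.1, and 0.1 after adjustment over the 3 shares tested).

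Pdpk1 (chr17:24073680-24150924) encodes PDK1, the kinase that phosphorylates AKT and S6 kinase in their activation loops. It was at 6.50, 6.67 and 5.85 FPKM on PD14, at 6.41, 6.71 and 6.03 on PD15 and at 7.15, 6.95 and 6.74 on PD16. Every PD16 library was above the 6 earlier ones, the nearest of which was at 6.71 FPKM. The difference between PD16 and PD14 was 0.12 (95% interval -0.027 to 0.26, limma adjusted p = 0.312).

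Akt1 and Akt2 encode 2 of the AKT kinases. Akt1 (chr12:112653821-112674884) was at 64.2, 66.4 and 67.3 FPKM on PD14, at 65.2, 63.5 and 58.6 on PD15 and at 64.9, 66.3 and 60.7 on PD16. The days overlapped, and PD16 differed from PD14 by -0.044 (95% interval -0.18 to 0.096, limma adjusted p = 0.717). Akt2 (chr7:27591552-27640826), the AKT best known for the insulin response, was at 26.6, 26.9 and 29.1 FPKM on PD14, at 24.3, 25.9 and 24.2 on PD15 and at 23.5, 25.4 and 23.4 on PD16. All 6 later libraries were below all 3 of PD14. The difference was -0.15 on PD15 (95% interval -0.28 to -0.015, limma adjusted p = 0.288) and -0.19 on PD16 (-0.32 to -0.053, adjusted p = 0.103), and neither passed the adjustment. Akt1 made up 70.6%, 71.6% and 72.6% of the summed FPKM of the pair on the 3 days (SD 0.672, 1.13 and 0.680, n = 3), which did not pass the exact permutation test (p = 0.0821, adjusted over the 3 shares 0.1).

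Foxo1 encodes the FOXO factor most abundant in granulosa cells of growing follicles, where it leaves the nucleus when AKT is active. It was at 31.9, 27.8 and 30.4 FPKM in the PD14 libraries, at 44.2, 43.2 and 36.9 on PD15 and at 58.1, 54.0 and 60.3 on PD16. The 3 days did not overlap, with the lowest libraries on PD14 and the highest on PD16. PD16 was above PD14 by 0.92 on the log2 scale (SE 0.083, 95% interval 0.73 to 1.10, limma adjusted p = 0.00419), which put Foxo1 at rank 116 of the 15495 genes by the size of the difference. PD15 was above PD14 by 0.45 (95% interval 0.26 to 0.64), with a mean ratio of 1.38 and a limma adjusted p of 0.0538, just outside the threshold. PD16 was above PD15 by 0.47 (95% interval 0.28 to 0.65), with a limma adjusted p of 0.0462, just inside it. The estimates of the 2 steps were close, and their falling on different sides of the threshold is no test of a difference between them. The exact permutation test over the 3 days gave p = 0.00357 for Foxo1, the smallest that the 280 groupings allow.

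The call for Foxo1 between PD14 and PD16 held in all 19 alternative settings, with differences from 0.86 to 0.96. The call between PD15 and PD16 was lost in 13 of 19, where its adjusted p reached 0.141. Of the same 19, the fit without PD15 replicate 3 was the 1 in which the call between PD14 and PD15 was gained (0.53, limma adjusted p = 0.0348). Foxo1 had 5362 to 13289 fragments a library and a counting error of at most 1.37%. Exons of Foxo1 overlap 674 of 8665 bases with the antisense gene Gm20402, and reads there cannot be told apart without strand. Gm20402 was listed at 0 in all 9 libraries.

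Foxo3, the FOXO factor of oocytes in primordial follicles, was at 16.8, 16.1 and 15.0 FPKM on PD14, at 15.3, 16.2 and 14.5 on PD15 and at 14.2, 15.3 and 16.8 on PD16. The days overlapped, and PD16 differed from PD14 by -0.049 (95% interval -0.21 to 0.12, limma adjusted p = 0.733). Foxo1 made up 65.5%, 63.3% and 66.9% of the summed FPKM of Foxo1 and Foxo3 in the PD14 libraries, 74.3%, 72.7% and 71.8% in those of PD15 and 80.4%, 78.0% and 78.2% in those of PD16. The share differed among the days by the exact permutation test (p = 0.00357, adjusted over the 3 shares 0.0107), and it does not depend on the scaling between libraries. With Foxo4 and Foxo6 added, the 4 FOXO genes summed to 65.1 ± 1.00, 73.9 ± 5.41 and 90.4 ± 3.36 FPKM on the 3 days (SD, n = 3), and Foxo1 took 46.1%, 56.0% and 63.6% of that sum.

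**Figure D3:**
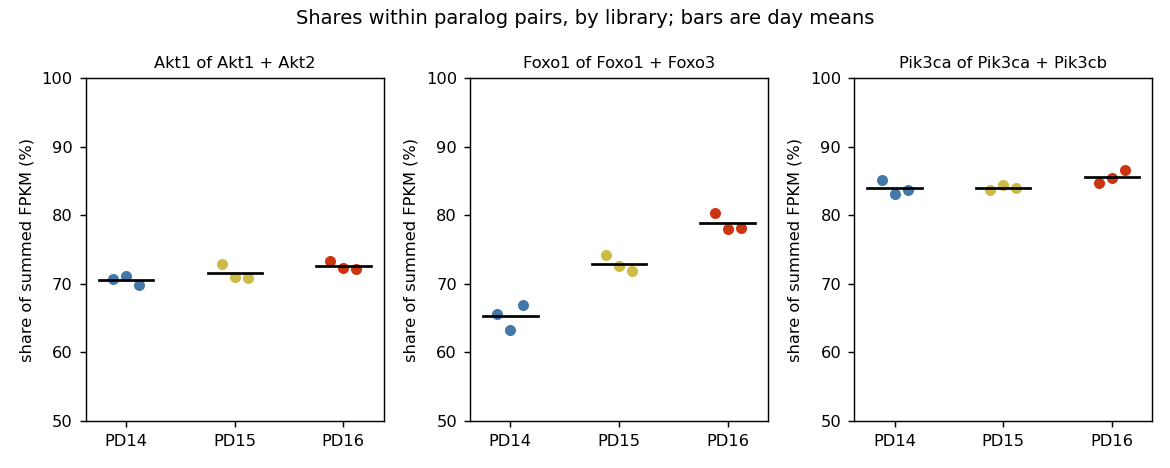
Share of the first gene in the summed FPKM of its paralog pair (vertical axes, in percent, shown from 50 to 100) on PD14, PD15 and PD16. Points are libraries and lines are day means. The Foxo1 share went from a mean of 65.3% to 78.9%, and those of Akt1 and Pik3ca stayed within 69.8% to 73.4% and 83.1% to 86.6%.

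Markers of several cell types also moved over these days, and their part in the Foxo1 result was not tested. The 9 granulosa markers, all of them tested, summed to 2753 to 3403 FPKM on PD14, 2557 to 2961 on PD15 and 2723 to 3205 on PD16, so the days overlapped. Most of this sum was Inha (means of 2296, 2008 and 2152 FPKM), so it says little of the other markers. Between PD14 and PD16, 1 of the 9 was called higher (Amh, the anti-Mullerian hormone of small follicles, at 0.47 on the log2 scale) and 2 were called lower (the aromatase gene Cyp19a1 at -0.84 and Kitl, the ligand of the oocyte receptor KIT, at -0.51). Among those that did not pass the test, the inhibin and activin subunit gene Inhba was at -1.04 (limma adjusted p = 0.0637) and the FSH receptor gene Fshr at 0.31 (adjusted p = 0.185). The granulosa markers thus did not move in 1 direction. For Cyp19a1 and the theca marker Cyp11a1 the study reports the other direction, an increase on PD15 and PD16 by quantitative RT-PCR. Here Cyp11a1 was at -0.91 on PD15 and -0.61 on PD16 against PD14 (limma adjusted p = 0.243 and 0.304). The study also reports a rise of Fshr by RNA-seq and quantitative RT-PCR. Here Fshr had means of 14.2, 12.8 and 17.9 FPKM on the 3 days.

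Of the 6 oviduct and epithelial markers, 4 were tested (Epcam, Krt8, Krt18 and Krt19). Ovgp1 and Foxj1 had means under 1 FPKM on each day, so almost all of the list's sum came from the epithelial genes tested. That sum was lower with age without overlap between the days, at 50.3 to 51.5 FPKM on PD14, 41.5 to 45.6 on PD15 and 35.0 to 38.8 on PD16. The keratin genes Krt8, Krt18 and Krt19 were called lower on PD16 than on PD14, at -0.48, -0.45 and -0.42 on the log2 scale. The 9 oocyte markers summed to 1102 to 1375, 1447 to 1558 and 1052 to 1127 FPKM on the 3 days. On PD16, 7 of the 9 had lower estimates than on PD14 (median -0.23), 1 was called higher (Bmp15, 0.39) and none was called lower. Against PD15 all 9 had lower estimates on PD16 (median -0.47), and Nlrp5 (-0.72) and Zp2 (-0.61) were called lower. The 6 theca and interstitial markers summed to 1559 to 2191, 1134 to 1716 and 1166 to 1581 FPKM, and the 5 red cell markers to 105 to 147, 46.4 to 63.2 and 60.8 to 116 FPKM. Most of the theca sum was Hsd3b1 (means of 1785, 1291 and 1273 FPKM), and most of the red cell sum was Hba-a1. Cyp17a1 had another course than Hsd3b1, with means of 28.9, 21.6 and 37.1 FPKM. In both lists no marker was called between PD14 and PD16. Between PD14 and PD15, the markers called over the 10 lists were Nlrp5, which was higher on PD15 (0.76), and Hba-a1 (-1.35) and Plin1 (-0.60), which were lower. The 4 smooth muscle markers summed to 277 to 315, 265 to 346 and 302 to 404 FPKM, mostly from Acta2, with Cnn1 called higher (0.61). The 4 fat markers summed to 6.86 to 8.02, 4.58 to 5.16 and 4.24 to 6.03 FPKM. Plin1, called lower (-0.50), was the 1 fat marker tested, since Adipoq, Fabp4 and Cfd had means under 1 FPKM on each day. The stromal (432 to 502, 388 to 453 and 443 to 456 FPKM), endothelial (52.5 to 55.5, 49.2 to 51.6 and 46.7 to 49.3 FPKM) and macrophage markers (4.83 to 5.50, 4.47 to 5.26 and 4.95 to 5.46 FPKM) had none called. No marker of the 10 lists was at 0 in all libraries.

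Rps6kb1 and Eif4ebp1 encode S6 kinase 1 and 4E-BP1, a pair of mTORC1 substrates that act on translation, the first as a kinase of ribosomal protein S6 and the second as a repressor of cap-dependent initiation. Rps6kb1 (chr11:86498871-86544805) was at 7.38, 7.53 and 7.12 FPKM on PD14, at 8.25, 8.18 and 7.68 on PD15 and at 8.41, 7.96 and 8.43 on PD16. All 6 later libraries were above those of PD14. The difference was 0.12 on PD15 (95% interval -0.0041 to 0.24, limma adjusted p = 0.354) and 0.15 on PD16 (0.032 to 0.27, adjusted p = 0.132). Its exons share 155 of 8658 bases with Rnft1, which lies on the other strand and was at up to 11.1 FPKM in a library.

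Eif4ebp1 (chr8:27260329-27276674) was at 24.9, 29.1 and 26.8 FPKM on PD14, at 29.9, 27.1 and 27.0 on PD15 and at 30.7, 31.3 and 30.1 on PD16. The PD16 libraries lay above the others and close together, with an SD of 1.84% of the mean against 7.88% on PD14. The difference between PD16 and PD14 was 0.18 (95% interval 0.031 to 0.34), which did not pass the adjustment over all genes (limma adjusted p = 0.148).

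The exact permutation test over the 3 days, taken gene by gene with no adjustment, also gave p = 0.0179 for Akt2, 0.0214 for Rps6kb1 and 0.0393 for Pik3ca. Their PD16 means were 0.875, 1.13 and 1.14 times those of PD14, and none passed the limma test across all genes. The exact p was 0.111 for Eif4ebp1, 0.136 for Pdpk1, 0.361 for Akt1, 0.721 for Foxo3 and 0.986 for Pik3cb.

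**Figure D4:**
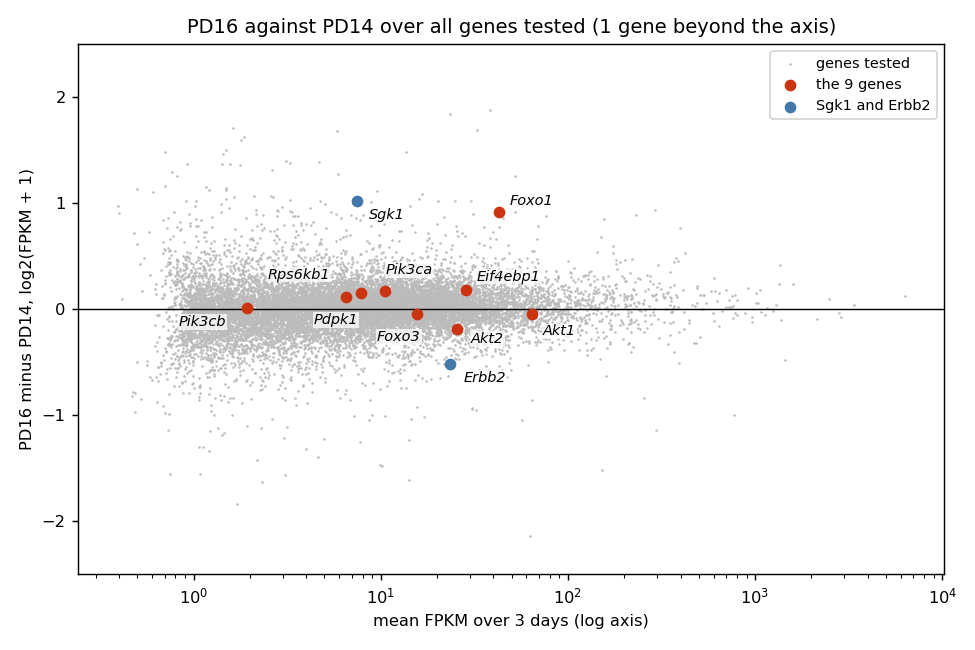
Difference between PD16 and PD14 on the log2(FPKM + 1) scale (vertical axis) against mean FPKM over the 3 days (horizontal log axis) for 15495 genes. Grey points are all genes tested, red points the 9 genes, and blue points Sgk1 and Erbb2. Foxo1 at 0.92 and Sgk1 at 1.02 stood above the band of genes at their levels, and the other 8 genes lay within it.

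The other genes of the pathway were taken from 6 lists grouped by role, and from PD14 to PD16 most of them did not pass the test. The share called of all genes tested was 4.25%, against which the counts below are read. Among the PI3K subunits, 5 of 7 were tested and none was called, with a median difference of 0.021. Pik3r1, the regulatory subunit p85alpha, was the highest of them and stood at 16.5 ± 2.63, 18.6 ± 1.38 and 19.9 ± 2.83 FPKM on the 3 days (SD, n = 3). Pik3r2 was listed at 0 in all 9 libraries. Among the receptors and adaptors, all 12 were tested, none was called higher and 1 was called lower, with a median of -0.016.

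Erbb2, a receptor of the EGF receptor family that signals through PI3K, was the gene called lower. It was at 24.5, 31.3 and 29.1 FPKM on PD14, at 24.3, 24.7 and 20.2 on PD15 and at 19.2, 21.8 and 17.2 on PD16. Every PD16 library was below every PD14 library, and the difference was -0.52 (SE 0.12, limma adjusted p = 0.0408). The epithelial markers Krt8, Krt18 and Krt19 were lower on PD16 by a like amount, and their part in the Erbb2 result was not tested. The call was lost in 11 of 19 alternative settings, where the adjusted p rose to as much as 0.129. Gab2, the docking protein with the highest level in this list, was at 40.0 ± 1.31, 37.5 ± 1.78 and 39.1 ± 2.89 FPKM (SD, n = 3).

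Sgk1, a kinase related to AKT that also phosphorylates FOXO factors, was the 1 gene called among the 9 tested of 10 AKT kinases and substrates, a list with a median of 0.072. It was at 5.24, 5.12 and 4.48 FPKM on PD14, at 6.56, 5.75 and 6.54 on PD15 and at 9.48, 12.6 and 11.3 on PD16. The 3 days did not overlap. Sgk1 rose by 1.02 on the log2 scale from PD14 to PD16 (SE 0.099, limma adjusted p = 0.00419) and by 0.73 from PD15 to PD16 (adjusted p = 0.0223), and its call from PD14 to PD16 held in all 19 alternative settings. From PD14 to PD15 it stood at 0.29 (adjusted p = 0.216). Akt1s1, the mTORC1 component PRAS40 and the highest of this list, was at 34.8 ± 1.59, 34.9 ± 1.08 and 36.6 ± 0.722 FPKM (SD, n = 3).

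Among the lipid and protein phosphatases that oppose the pathway, 5 of 6 were tested and none was called, with a median of -0.017. The inositol phosphatase gene Inppl1 had the highest level at 27.9 ± 1.58 FPKM on PD14, and the AKT phosphatase gene Phlpp2 the largest difference at 0.25 (limma adjusted p = 0.118).

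The list of FOXO factors and genes known as FOXO targets had 13 genes, all tested and none called between PD14 and PD16. Of these, 4 had higher and 9 lower estimates, with a median of -0.098, where 52.2% of all genes tested had higher estimates and the median was 0.0093. Txnip, a regulator of glucose uptake and redox state, had the highest level at 168 ± 16.9, 180 ± 10.6 and 192 ± 3.33 FPKM (SD, n = 3), a difference of 0.20 (limma adjusted p = 0.214). Foxo6 had the largest difference at -0.36 (adjusted p = 0.240), with 4.49 ± 0.755 FPKM on PD14 and 3.27 ± 0.506 FPKM on PD16.

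The S6 kinase and 4E-BP arm had 11 other genes, all tested and none called, with a median of 0.12. Rps6, the ribosomal protein that S6 kinase phosphorylates, was at 726 ± 68.5, 729 ± 109 and 792 ± 92.9 FPKM (SD, n = 3). Eif4a1, the helicase of the initiation complex, had the largest difference at 0.30 (limma adjusted p = 0.151). No gene of the 6 lists was called from PD14 to PD15, and Sgk1 alone was called from PD15 to PD16. Over the 3 days, the F test called Sgk1 (limma adjusted p = 0.00557) and Tbc1d4 (adjusted p = 0.0496) in these lists. Tbc1d4, an AKT substrate that controls glucose transporter traffic and was named after its values were seen, was at 4.84 ± 0.362, 3.04 ± 0.461 and 4.21 ± 0.520 FPKM (SD, n = 3).

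**Figure D5:**
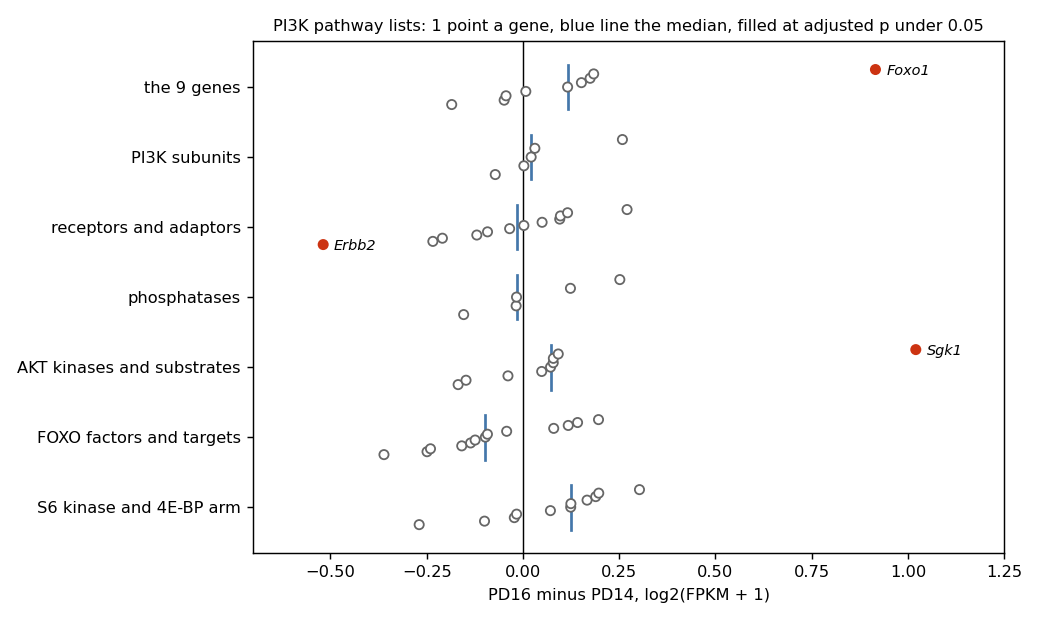
Difference between PD16 and PD14 on the log2(FPKM + 1) scale (horizontal axis) for the 9 genes and the 6 other lists of the pathway. Each point is a gene, filled at a limma adjusted p under 0.05, and the blue line is the median of a list. Foxo1, Sgk1 and Erbb2 were the genes called, and the medians lay between -0.098 and 0.12.

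The gene most like each of the 9 across the 9 libraries was found by Pearson's r of log2(FPKM + 1) among all genes tested, as a description, since every pair shares the same libraries and depth. For Foxo1 it was Zbtb11, a zinc finger gene (r = 0.970, Spearman's rho = 0.950, and r = 0.950 over 7 libraries without the 2 farthest in Foxo1), which went from 3.40 to 3.87 and 4.49 FPKM. Such likeness was common, and 101 genes reached r above 0.9 with Foxo1, 95 with Rps6kb1 and 90 with Akt2, against 1 with Pik3cb. The closest gene was Rmnd5a for Pik3ca (r = 0.976), Gcnt1 for Pik3cb (r = 0.914), Vangl1 for Pdpk1 (r = 0.966) and Phb2 for Akt1 (r = 0.960). For Akt2 it was Ccdc12 (r = 0.980), for Foxo3 D430042O09Rik (r = 0.950), for Rps6kb1 Socs7 (r = 0.983) and for Eif4ebp1 Cnnm1 (r = 0.969). None of the 9 genes was the closest to another of them.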

How the data were processed

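RNA-seq was measured in 9 mouse libraries labelled as ovary by tissue and as granulosa cells by source, grouped by the age in the labels. The deposited tables hold FPKM per gene, which the authors computed after alignment; the submitters' processing notes name HISAT2 2.0.5 and mm10, and the counting tool, its strand setting and the annotation release are not given in the sources used here. Gene positions and exon lengths were taken from GENCODE M21, which matched 96.8% of the IDs, and promoters from RefSeq. Since low FPKM values were whole multiples of 1 fragment in 94.9% to 95.5% of cases (tolerance 0.02 fragment), mapped fragments and fragments per gene were derived from them; counting errors cover sampling of fragments only.

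Genes with a mean above 1 FPKM on at least 1 day were tested with limma 3.58.1 (R 4.3.3) on log2(FPKM + 1), with a trend in the variance, all 9 libraries and Benjamini-Hochberg adjustment over all genes tested. Fold changes on this scale understate those of low genes. Exact permutation tests on the F statistic used SciPy 1.17.1 and Python 3.11.15. The fit was tested on simulated data. All 9 genes were named, and from each pathway list the genes called between 2 days, the highest and the one with the largest change between PD14 and PD16. The genes and lists were chosen with earlier results of these data known. Alternatives changed the pseudocount, filter, scaling, variance model, days in the fit and replicate block, and left out each library. 1 gene of the lists is not reported by name here.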

Additional observations from a re-analysis of the deposited data

How the results depend on the processing

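With 3 libraries a day, several differences whose own 95% intervals excluded 0 did not pass the adjustment over all genes. Pik3cb had the fewest fragments of the 9 genes. The call of Foxo1 between PD14 and PD16 was kept under every alternative that was run, and the count of the 9 genes called over the 3 days was 1 in all 18 run. The cause of the changes below was not tested.

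Among the 9 genes, the count called between PD15 and PD16 went from 1 to 0 with no expression filter, with TPM scaling, without the variance trend and with only the 2 days compared, and with 1 library left out it was 0 in 8 of 9 fits and 1 in the fit without PD14 replicate 2. Between PD14 and PD15 it was 0 or 1, with 1 only without PD15 replicate 3. Over all genes, the 105 called between PD14 and PD15 became 29 with no filter, 63 with a mean above 5 FPKM and 47 with only the 2 days. Leaving out 1 library gave 3 to 92, with 57, 32 and 7 without PD14 replicates 1, 2 and 3, 3, 10 and 52 without those of PD15, and 61 and 68 without PD16 replicates 1 and 2. The 659 called between PD14 and PD16 became 172 with no filter, 397 with TPM scaling and 320 with only the 2 days. Leaving out 1 library gave 92 to 660, with 192, 425 and 116 without PD14 replicates 1, 2 and 3 and 92, 310 and 410 without those of PD16. Of the 659, 366 were higher and 293 lower on PD16. The balance was 199 higher and 198 lower with TPM scaling, and 275 and 135 without PD16 replicate 3. The 113 called between PD15 and PD16 became 24 with no filter, and 14 to 125 with 1 library left out. These were 55 without PD14 replicate 3, 14, 33 and 59 without PD15 replicates 1, 2 and 3, and 23, 64 and 47 without those of PD16.

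The labels do not say that the replicate numbers pair the libraries. Deviations of libraries with the same number correlated at -0.214 to 0.159, and those with different numbers at -0.196 to 0.211. With a replicate block the counts called were 24 between PD14 and PD15, 227 between PD14 and PD16 and 56 between PD15 and PD16, and 0 of the 9 genes were called in the last of these.

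Some estimates near 0, all uncalled, changed sign. With TPM scaling, Pik3ca, Pik3cb and Pdpk1 on PD15 against PD14 became -0.0028, -0.0061 and -0.0053, Pik3cb on PD16 became -0.013 against PD14 and -0.0073 against PD15, and Foxo3 on PD16 against PD15 became -0.0045. With median-ratio scaling, Pik3cb and Foxo3 on PD16 against PD15 became -0.0032 and -0.0020. With 1 library left out, PD15 against PD14 ranged from -0.015 to 0.050 for Pik3ca, -0.011 to 0.034 for Pik3cb, -0.039 to 0.044 for Pdpk1 and -0.00012 to 0.11 for Eif4ebp1. PD16 against PD14 ranged from -0.044 to 0.052 for Pik3cb, -0.11 to 0.0054 for Foxo3 and -0.093 to 0.0039 for Gab2. PD16 against PD15 ranged from -0.050 to 0.046 for Pik3cb, -0.0088 to 0.072 for Akt1 and -0.055 to 0.059 for Foxo3. The change in share from PD14 to PD16 was 1.09 to 2.17 points for Pik3ca. The exact permutation test of the shares compares all 3 days and does not test that change alone. It was passed by the Pik3ca share without PD14 replicate 1, where the change was 2.17 points (exact permutation p adjusted over the 3 shares 0.0429). For Akt1 the change was 1.69 to 2.36 points. Its share passed the same test over the 3 days without PD15 replicate 1, where the change was 2.08 points (adjusted exact permutation p = 0.0375). For Foxo1 the change was 12.6 to 14.4 points.

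A further setting, chosen after the data were seen, took Foxo1 relative to the mean log2 level of the 9 granulosa markers. It gave 0.62 on PD15 and 1.12 on PD16 against PD14 (limma adjusted p = 0.0424 and 0.00419) and 0.50 on PD16 against PD15 (adjusted p = 0.0725). Since those markers moved in both directions, it does not measure the share of granulosa cells.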
